A study of Homo sapiens with 8 samples.

Results

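ATP-binding cassette (ABC) genes other than the cholesterol exporter genes ABCA1 and ABCG1 were followed in the ovarian cancer line SKOV3, an established human cell line, with and without added low-density lipoprotein (LDL). The members are the rows of the deposited tables whose gene name is ABC, a subfamily letter from A to G and a number. That rule gave 43 genes of 22554 features. Family members with other names (TAP1, TAP2 and CFTR) are outside it. The 4 control samples grew in McCoy's medium with fetal bovine serum, and the 4 LDL samples received 50 µg/mL LDL for 48 h; both groups shared that medium and antibiotics. Serum is itself a source of lipoproteins. Nothing in the labels tells separate cultures from repeats of 1 culture, so p-values here measure a spread between samples that may be technical. In bulk RNA, fewer cells of a type and less RNA per cell cannot be told apart.

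ABC proteins share a nucleotide-binding domain that binds and hydrolyses ATP. In most of them this domain drives a membrane-spanning part that moves lipids, peptides, metal complexes, conjugates or drugs across a membrane. Members of subfamilies E and F lack the membrane part and act on the ribosome. In ovarian cancer the family is best known for the export of chemotherapeutic drugs, above all through P-glycoprotein (ABCB1), BCRP (ABCG2) and the multidrug resistance proteins of subfamily C.

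The control libraries held 37189698 to 44883561 counts and the LDL libraries 34682501 to 36780334, with no overlap in depth between the groups. Of 10 ovarian carcinoma markers, all were tested and WT1 and MUC16 were near the floor (0.21 and 0.88 CPM in control samples). ERBB2 stood at 2590 ± 133 CPM (counts scaled to a common library size after TMM normalisation) in control and 2515 ± 392 CPM with LDL (mean ± SD, n = 4 each), and KRT8 and PAX8 were at 1687 and 387 CPM in control samples. None of the 10 passed an adjusted p under 0.05 with edgeR, DESeq2 or limma voom, and 4 had an unadjusted edgeR p under 0.05 (KRT7 and MUC16 lower, MUC1 and EPCAM higher with LDL); their part in the results on ABC genes was not tested. The leukocyte marker PTPRC had a count of 0 in all 8 libraries, and CD3E had 2 counts in all. Of 14 genes chosen as a check of the sterol response, 13 were tested and 3 rose past the threshold; MSMO1, a sterol synthesis enzyme, had the smallest p (34.8 ± 2.77 CPM without and 47.7 ± 1.93 CPM with LDL, SD, n = 4 each; edgeR adjusted p = 0.0114). The call was lost on leaving out control sample 1, 3 or 4, LDL sample 2 or LDL sample 3 (edgeR adjusted p = 0.0522 to 0.142) and with the replicate number as a block (edgeR adjusted p = 0.0783), and in the limma fit on log2(FPKM + 1) with no minimum (adjusted p = 0.169). The log2 fold change in those fits was 0.42 to 0.47, against 0.46.

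The members fell into 3 levels of expression. FPKM (fragment counts scaled by the authors to transcript length and library depth) was used to set genes side by side. A mean of at least 1 FPKM over the 8 libraries was reached by 19 of the 43 genes, and these are called expressed here. Another 11 were below 1 FPKM but had enough counts to be tested. The remaining 13 were below the count filter, and 6 of them had a count of 0 in every library.

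The CG content of the promoters was set beside the level of expression as a description, with no test, and 4 promoters are shown because they span the range from expressed to silent. RefSeq promoter sequences on GRCh38.p14 were matched for 34 of the 43 genes; ABCC1 and ABCC3 are among those not matched. Each sequence is the 250 bases before the RefSeq start used, 5′ to 3′ on the gene's strand, with CG pairs in capitals. Some genes had more than 1 RefSeq promoter (5 for ABCG2), and the start nearest to the annotated start of the gene (GENCODE) was taken. For ABCG8 and ABCB9 that start still lay 7029 and 6535 bases away, inside the annotated gene. The windows of ABCC9 and ABCE1 also lay inside the annotated gene. Other starts were not tried. ABCB10 (minus strand, chr1:229558708-229558957) and ABCA2 (minus strand, chr9:137028923-137029172) are expressed; ABCC2 (plus strand, chr10:99782390-99782639) is below 1 FPKM, and ABCB11 (minus strand, chr2:169031325-169031574) had no counts. These 4 were chosen after their values were seen, among those whose window lies outside the annotated gene.
ABCB10: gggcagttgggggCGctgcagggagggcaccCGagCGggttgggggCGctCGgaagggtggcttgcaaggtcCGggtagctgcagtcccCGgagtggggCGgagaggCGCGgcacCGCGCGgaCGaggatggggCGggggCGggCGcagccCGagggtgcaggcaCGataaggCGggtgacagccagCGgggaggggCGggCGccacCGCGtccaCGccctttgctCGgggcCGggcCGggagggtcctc
ABCA2: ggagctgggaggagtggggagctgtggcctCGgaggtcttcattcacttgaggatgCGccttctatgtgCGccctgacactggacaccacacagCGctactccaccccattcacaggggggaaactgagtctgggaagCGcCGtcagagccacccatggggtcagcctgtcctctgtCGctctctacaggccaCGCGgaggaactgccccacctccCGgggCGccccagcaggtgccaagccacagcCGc
ABCC2: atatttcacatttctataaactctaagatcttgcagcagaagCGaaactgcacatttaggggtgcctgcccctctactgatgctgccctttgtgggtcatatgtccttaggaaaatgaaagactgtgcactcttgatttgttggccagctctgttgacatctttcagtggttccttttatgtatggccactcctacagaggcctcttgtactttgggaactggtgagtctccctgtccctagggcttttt
ABCB11: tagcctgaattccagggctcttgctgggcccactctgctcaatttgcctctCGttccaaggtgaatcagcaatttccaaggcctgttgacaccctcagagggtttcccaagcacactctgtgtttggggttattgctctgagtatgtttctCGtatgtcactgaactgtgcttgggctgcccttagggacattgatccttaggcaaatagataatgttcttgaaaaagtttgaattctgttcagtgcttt

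ABCB10 held 29 CG pairs in this window and ABCA2 held 12, the fewest of any matched expressed member. ABCC2 held 1 and ABCB11 held 2. Over the 15 matched expressed members the median was 26 (range 12 to 42). Over the 9 matched members that were tested but below 1 FPKM the median was 2 (range 1 to 38), and over the 10 matched members below the count filter it was 3 (range 0 to 15). The median of all 35116 RefSeq promoters was 11. The groups overlapped: ABCA3, with 38 pairs, ABCC6, with 21, ABCB6, with 20, and ABCG4, with 19, had many CG pairs at a low level. The level of ABCB6 does not include counts assigned to an annotated gene that overlaps it on the same strand, described below. The motif GGGCGG, searched on both strands and containing 1 CG pair itself, was found in 11 of the 15 expressed members, in 3 of the 9 and in 2 of the 10, against 42.6% of all promoters. TATAAA was found in 5 of the 34 (14.7%, against 10.7% of all promoters), among them ABCC2. The sterol regulatory element TCACNCCAC was in none of the 34 windows and in 0.883% of all promoters. These are descriptions of letters in a short window.

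**Figure D1:**
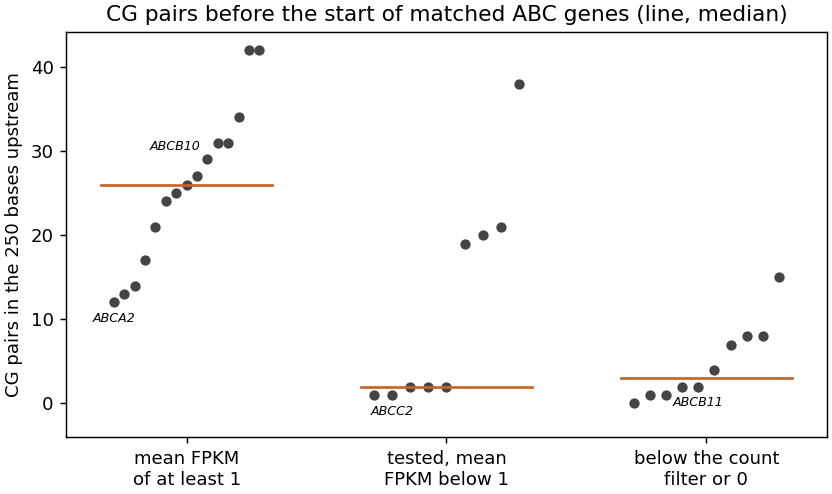
CG pairs in the 250 bases upstream of the RefSeq start used for each of 34 ABC genes, 1 point per gene, split by expression level, with the median as a line. The expressed members have a median of 26 and none is below 12, while the medians of the other groups are 2 and 3.

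Across the 30 members tested, none passed an adjusted p under 0.05 in edgeR, and DESeq2 and limma voom called none either. Over all 15432 features tested, edgeR called 10, or 0.0648%. At an unadjusted edgeR p under 0.05 there were 3 members (10%), against 5.59% of all features. Of these, 2 were lower, ABCC1 among them, and ABCC3 was higher, where 2.72% of all features were lower and 2.88% higher at that p. In none of the 30 were the 4 LDL values all above or all below the 4 control values, against 3.45% of all features (1.71% lower and 1.74% higher). The log2 fold change was below 0 in 14 and above 0 in 16 members, with a median of 0.01 (all features: 0.006, with 47.7% below 0).

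The 2 members with the highest level per length, ABCF1 and ABCE1, act on the ribosome. ABCF1, which takes part in translation initiation, had FPKM values of 43.0, 40.5, 42.3 and 41.7 in controls 1 to 4 and of 41.1, 43.2, 39.6 and 41.0 with LDL. It was the highest member, and its groups overlapped almost completely. ABCE1, the factor that splits ribosomes into subunits after termination, had 38.1, 35.7, 34.4 and 31.7 FPKM in control and 35.3, 36.1, 36.1 and 35.99 FPKM in LDL samples. The LDL values lay within the control range. ABCF3 and ABCF2, of the same subfamily as ABCF1, had mean FPKM of 22.5 and 18.1, below ABCD3 at 28.2. ABCF2 was also below ABCC1 at 19.6. An annotated gene outside the tables overlaps ABCF2 on the same strand by 14677 bases, and OTUD4 overlaps ABCE1 on the opposite strand by 18342 bases. ABCE1 and the 3 genes of subfamily F made up 45.7% of the summed FPKM of all 43 members (44.8% to 47.6% across libraries), with sums of 117.6 ± 2.97 FPKM in control and 117.5 ± 2.97 FPKM in LDL samples (SD, n = 4 each). In the test of counts, ABCF1 had a log2 fold change of -0.03 (SE 0.048, 95% interval -0.13 to 0.07, edgeR adjusted p = 0.957) and ABCE1 one of 0.03 (SE 0.054, 95% interval -0.08 to 0.15, edgeR adjusted p = 0.96). Neither passed the threshold.

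**Figure D2:**
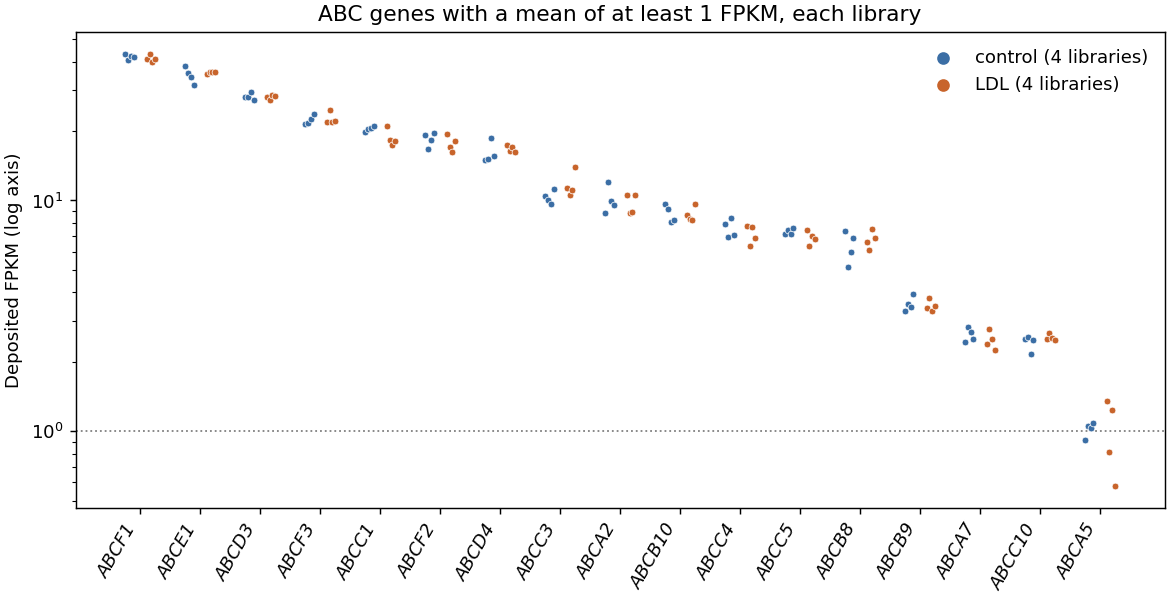
Deposited FPKM on a log axis for 17 of the 19 expressed ABC genes, 1 point per library, 4 control and 4 LDL libraries per gene, ordered by mean. ABCF1 and ABCE1 lead at means of 41.6 and 35.4 FPKM, and the points of both groups overlap for every gene shown.

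The third highest member was a gene of the peroxisome. ABCD3, the abundant peroxisomal membrane protein that takes in branched-chain and dicarboxylic acids, had 28.01, 28.1, 29.5 and 27.2 FPKM in control and 28.1, 27.3, 28.8 and 28.5 FPKM in LDL samples. On FPKM it was the most even of the leading members, with a highest to lowest ratio of 1.08 over the 8 libraries. In CPM the ratio was 1.11 for ABCD3 against 1.09 for ABCF1. The log2 fold change of ABCD3 was 0.02 (95% interval -0.09 to 0.13, edgeR adjusted p = 0.979). ABCD4, which moves vitamin B12 out of the lysosome, had a mean of 16.4 FPKM. ABCD2, a peroxisomal fatty acid transporter, had no count in any library; a count of 0 is compatible with up to 3 counts, which is 0.0668 CPM of the unscaled total of the deepest library and 0.0865 CPM of that of the shallowest.

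Of 19 peroxisomal import and beta-oxidation genes tested beside the ABCD genes, none passed the threshold with edgeR, DESeq2 or limma voom. At an unadjusted edgeR p under 0.05 there was 1 lower and 1 higher gene. ACOX3, a peroxisomal acyl-CoA oxidase, had the smallest p, at 17.3 ± 1.73 CPM without and 14.5 ± 1.05 CPM with LDL (mean ± SD, n = 4 each; edgeR adjusted p = 0.822). The median log2 fold change of the list was -0.01, against 0.006 over all features tested.

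Among the drug and conjugate exporters the line expressed 5 members of subfamily C. ABCC1 (MRP1), which exports glutathione conjugates, leukotriene C4 and several drugs, was the highest at a mean of 19.6 FPKM. ABCC3 (MRP3), which exports glucuronides, had 11.1 FPKM, ABCC4 (MRP4), which exports cyclic nucleotides and prostaglandins, 7.39, ABCC5 (MRP5) 7.12 and ABCC10 (MRP7) 2.49. The best known drug exporters were near the floor. ABCB1 had counts of 0, 2, 2 and 0 in control and 3, 4, 7 and 0 in LDL samples, 18 in all, and was too low to be tested. ABCG2 had 29, 17, 15 and 33 counts without and 10, 14, 16 and 8 with LDL, at a mean of 0.0919 FPKM. ABCC2 (MRP2), the exporter of the bile canaliculus, had a mean of 0.241 FPKM, ABCC6 0.21 FPKM, ABCC12 had 12 counts in all, and ABCB5 and ABCC11 had none. GENCODE annotates pseudogene copies of ABCC6, so its value is uncertain.

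ABCC1 stood at 133.8, 138.9, 142.3 and 144.4 CPM in controls 1 to 4 and at 140.2, 125.0, 119.6 and 123.7 CPM in LDL samples 1 to 4. LDL sample 1 lay inside the control range and LDL samples 2, 3 and 4 lay below it. The means were 139.9 ± 4.63 and 127.1 ± 9.03 CPM (SD, n = 4 each), a ratio of 0.909 (log2 fold change -0.14, SE 0.055, 95% interval -0.25 to -0.02). The unadjusted edgeR p was 0.0232 and the adjusted p 0.849, and the exact two-sided permutation p was 0.0857, where 4 against 4 samples cannot go below 0.0286. With LDL sample 1 left out the log2 fold change reached -0.19 (edgeR adjusted p = 0.0572), still above the threshold. In that fit 14.5% of all features had an unadjusted edgeR p under 0.05. Without LDL sample 3 the log2 fold change of ABCC1 was -0.11 (edgeR adjusted p = 0.998). Of 18 alternative fits, 11 gave ABCC1 an unadjusted p under 0.05. ABCC1 lies on the plus strand of chromosome 16 from 15949577 to 16143074 (GRCh38).

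ABCC3 stood at 56.2, 53.5, 54.6 and 59.9 CPM in control samples and at 62.0, 58.3, 61.2 and 74.4 CPM in LDL samples. LDL samples 1, 3 and 4 lay above every control, LDL sample 2 lay below control sample 4, and LDL sample 4 was the highest library. The means were 56.1 ± 2.79 and 64.0 ± 7.13 CPM (SD, n = 4 each), a ratio of 1.14 (log2 fold change 0.19, SE 0.073, 95% interval 0.04 to 0.34). The unadjusted edgeR p was 0.0187 and the adjusted p 0.826, the lowest among the members, and the exact two-sided permutation p was 0.0571. With LDL sample 4 left out the log2 change was 0.11 (edgeR adjusted p = 0.98). Of 5 fibroblast markers, all tested in this line, that library was lowest in COL1A1, at 146 CPM against 343 to 398 CPM in the other 7, and in COL1A2, at 5.02 CPM against 7.56 to 12.5 CPM. In LUM (4.74 CPM), DCN (1.55 CPM) and PDGFRA (1.09 CPM) it lay inside the range of the other libraries. The summed level of the 5, most of it COL1A1, was taken on unscaled library totals. It was 359 to 385 CPM in control samples, 379 to 419 CPM in the other LDL samples and 159 CPM in LDL sample 4. None of the 5 was at a summed count of 0, and their part in the ABCC3 value was not tested. ABCC3 lies on the plus strand of chromosome 17 from 50634777 to 50692252 (GRCh38).

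**Figure D3:**
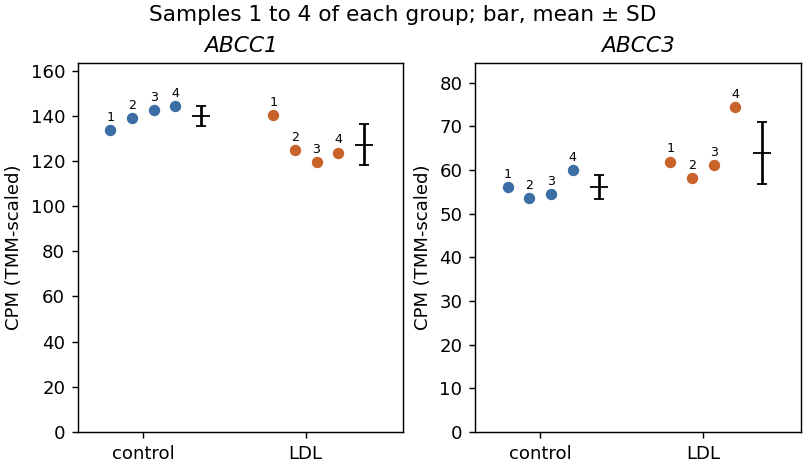
TMM-scaled CPM of ABCC1 and ABCC3 in each sample, numbered 1 to 4 within its group, with mean and SD as a bar. LDL sample 1 lies among the controls for ABCC1, and LDL sample 4 is the highest for ABCC3 at 74.4 CPM; the groups overlap in both panels.

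Genes that supply or regulate these exporters did not pass either. Of 18 tested genes of glutathione synthesis and conjugation, none passed with edgeR, DESeq2 or limma voom and none had an unadjusted edgeR p under 0.05. The smallest p was that of GSTM3, a glutathione transferase, at 9.54 ± 0.532 CPM without and 8.06 ± 1.07 CPM with LDL (mean ± SD, n = 4 each; edgeR adjusted p = 0.879). Of 12 tested nuclear receptors and other regulators of drug transporter genes, again none passed with any of the 3 tools or had an unadjusted edgeR p under 0.05. RXRA, the shared partner of many nuclear receptors, was at 97.6 ± 1.76 CPM without and 91.2 ± 3.2 CPM with LDL (mean ± SD, n = 4 each; edgeR adjusted p = 0.879).

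The half-transporters of the mitochondrion were expressed at a middle level. ABCB10, which has annotated pseudogene copies and is linked to haem synthesis, had 9.64, 9.21, 8.04 and 8.20 FPKM in control and 8.63, 8.30, 8.20 and 9.69 FPKM in LDL samples. Control samples 1 and 2 and LDL sample 4 formed the upper values, and the log2 fold change was -0.02 (95% interval -0.18 to 0.14, edgeR adjusted p = 0.988). ABCB8, part of a mitochondrial potassium channel complex, had a mean of 6.56 FPKM.

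ABCB8 varied more on the FPKM scale than in CPM. Its CPM ran from 22.7 to 27.7 over the 8 libraries, a highest to lowest ratio of 1.22, while its FPKM ran from 5.17 to 7.50, a ratio of 1.45. Dividing counts by FPKM gives the length that the scaling implies, and for ABCB8 this ran from 3.33 kb in control sample 1 to 4.55 kb in control sample 2. The coefficient of variation of this length was 10.8% for ABCB8 and 10.95% for ABCA5, against 0.89% for ABCC1.

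ABCB6, the porphyrin transporter, had a mean of only 0.174 FPKM, and its counts share a locus with another feature. ABCB6 spans positions 219209766 to 219219017 of chromosome 2 (GRCh38, minus strand). An annotated read-through gene, ENSG00000284820, runs on the same strand from 219209772 to 219222738, and so covers 9246 bases of ABCB6 and extends into the autophagy gene ATG9A upstream. ABCB6 had counts of 18, 12, 16 and 19 in control and 7, 38, 12 and 16 with LDL. Counts of the read-through gene were 419, 321, 659 and 1129 in control and 1205, 0, 776 and 590 in LDL samples. LDL sample 2 thus had the highest count for ABCB6 and a count of 0 for the read-through gene. The read-through gene had a mean of 3.03 FPKM and both features together 3.20 FPKM, above the limit of 1 used for expressed members. Of the 5237 counts assigned to either, 2.63% carried the name ABCB6. It had a log2 fold change of 0.38 (SE 0.503, edgeR adjusted p = 0.951) and turned to -0.27 without LDL sample 2 (edgeR adjusted p = 0.995). Both features added gave a log2 fold change of 0.24 (SE 0.847, edgeR adjusted p = 0.984), and the sum still ran from 1.10 to 32.8 CPM across LDL samples. ATG9A varied little, at 127 ± 3.69 CPM without and 119.2 ± 11.1 CPM with LDL (mean ± SD, n = 4 each). How reads were divided between these features is not stated in the labels.

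**Figure D4:**
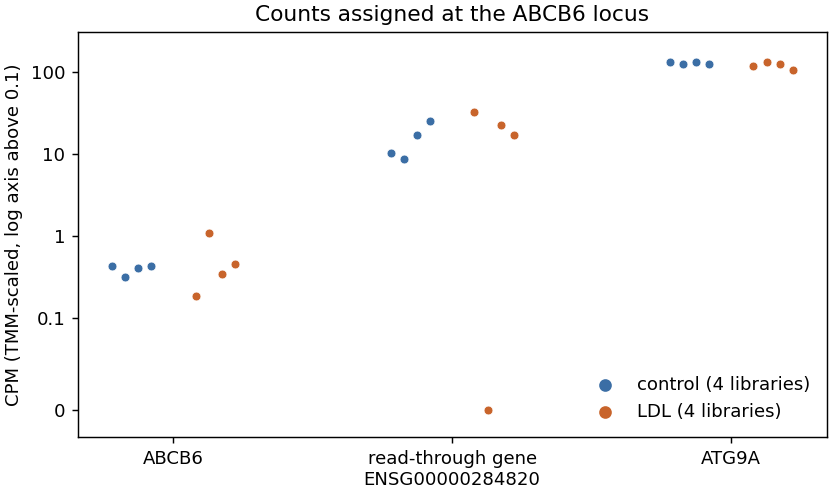
TMM-scaled CPM assigned to ABCB6, to the read-through gene ENSG00000284820 that spans it and to ATG9A, 1 point per library, on an axis that is logarithmic above 0.1. The read-through gene lies between 8.56 and 32.6 CPM in 7 libraries and at 0 in LDL sample 2, where ABCB6 is highest at 1.10 CPM.

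Of 33 genes of iron-sulfur and haem synthesis, all were tested, none passed with edgeR, DESeq2 or limma voom, and none had an unadjusted edgeR p under 0.05. ISCA1, an iron-sulfur assembly factor, had the smallest p, at 83.1 ± 3.33 CPM without and 89.3 ± 3.65 CPM with LDL (mean ± SD, n = 4 each; edgeR adjusted p = 0.879). Of 19 genes of ribosome recycling and the GCN pathway, which work with ABCE1 and subfamily F, likewise none passed with the 3 tools or had an unadjusted edgeR p under 0.05. EIF3J, an initiation factor subunit, was at 80.03 ± 4.35 CPM without and 88.0 ± 8.00 CPM with LDL (mean ± SD, n = 4 each; edgeR adjusted p = 0.879).

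Peptide transporters were represented by ABCB9, which carries peptides into the lysosome, at a mean of 3.53 FPKM. It overlaps OGFOD2 and ARL6IP4 on the opposite strand, and ARL6IP4 had 69350 counts against 4982 for ABCB9; the strand setting of the counting is not given in the sources used here. TAP1 and TAP2, which transport peptides for HLA class I, were at 57.0 and 79.1 CPM without and 57.0 and 75.4 CPM with LDL. Neither passed (TAP2 edgeR adjusted p = 0.916, n = 4 each). Of 11 partners of TAP none passed with edgeR, DESeq2 or limma voom, and 2 were lower at an unadjusted edgeR p under 0.05. The smallest p was that of NLRC5, the activator of HLA class I genes (29.5 ± 1.71 CPM without and 24.2 ± 2.39 CPM with LDL, SD, n = 4 each; edgeR adjusted p = 0.534). Without LDL sample 1 NLRC5 passed (log2 fold change -0.35, edgeR adjusted p = 0.0407), in a fit where 14.5% of all features had an unadjusted p under 0.05. On FPKM its log2 difference was -0.075 with a pseudocount of 1 and -0.095 with 0.1 (limma adjusted p = 0.946 and 0.943).

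Of the lipid transporters of subfamily A, 3 were expressed. ABCA2, a lysosomal and endosomal transporter best known from nervous tissue, led with 8.86, 12.05, 9.95 and 9.59 FPKM in control and 10.6, 8.86, 8.95 and 10.6 FPKM in LDL samples. The highest FPKM was in control sample 2. In CPM the highest was LDL sample 1 (88.5 CPM) and the lowest LDL sample 4 (73.4 CPM). The length implied by counts over FPKM was 7.155 kb in control sample 2 and 6.985 kb in LDL sample 4. In the other libraries it was 8.42 to 8.57 kb. The log2 fold change in counts was -0.06 (95% interval -0.20 to 0.08, edgeR adjusted p = 0.942). ABCA7, a phospholipid transporter linked to Alzheimer disease risk, had a mean of 2.55 FPKM, and ABCA5, a lysosomal member, had 1.01 FPKM, just above the limit of 1. ABCA3, the lipid transporter of lung surfactant, was the member just below it at 0.659 FPKM.

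ABCA5 was the expressed member that varied most among LDL samples relative to its mean, with 9.60, 6.19, 7.84 and 4.91 CPM against 5.84, 7.44, 7.26 and 6.71 CPM in control samples. LDL sample 1 was the highest and LDL sample 4 the lowest of all 8. ABCA5 stands in a row of related genes on chromosome 17 with ABCA6, ABCA8, ABCA9 and ABCA10. Its neighbours were near the floor: ABCA10 had 169 counts over the 8 libraries, ABCA9 21, ABCA6 4 and ABCA8 none, against 2111 for ABCA5. ABCA5 and ABCA10 overlap by 536 bases on the same strand. Of the tissue-restricted members of the subfamily, ABCA4 of the retina, ABCA12 of the skin and ABCA13 had means of 0.111, 0.0273 and 0.026 FPKM.

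Of 12 tested genes of the lysosome, surfactant and sphingolipid lists that go with subfamily A, none passed with edgeR, DESeq2 or limma voom, and 1 was lower at an unadjusted edgeR p under 0.05. That gene was SPTLC2, a subunit of the enzyme that starts sphingolipid synthesis, at 81.2 ± 0.75 CPM without and 72.7 ± 5.44 CPM with LDL (mean ± SD, n = 4 each; edgeR adjusted p = 0.817).

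Transporters of sterols and bile were low or silent once ABCA1 and ABCG1 were set aside. ABCG4, a sterol transporter mainly of the nervous system, was the highest in subfamily G, with 2.30, 2.03, 2.51 and 2.54 CPM without and 1.38, 3.20, 1.88 and 1.75 CPM with LDL. LDL samples 1, 3 and 4 lay below every control and LDL sample 2 above every control. It had a log2 fold change of -0.19 (SE 0.25, 95% interval -0.72 to 0.33, edgeR adjusted p = 0.95). Single libraries moved it: it was -0.49 without LDL sample 2 (edgeR adjusted p = 0.995) and -0.04 without LDL sample 1 (edgeR adjusted p = 0.958). ABCG5 and ABCG8, which together export plant sterols and cholesterol from liver and gut, had 7 and 2 counts over the 8 libraries. ABCB4, the phosphatidylcholine exporter of bile, had 2 counts, and ABCB11, the bile salt export pump, had none.

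The channel regulators were also near the floor. ABCC8, the sulfonylurea receptor of the beta cell, had counts of 19, 18, 0 and 0 in control and 18, 15, 7 and 20 in LDL samples, and ABCC9 had none. Of their channel partners, KCNJ11 was tested and stood at 0.347 ± 0.179 CPM without and 0.348 ± 0.154 CPM with LDL (mean ± SD, n = 4 each; edgeR adjusted p = 0.999).

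The precision of these comparisons differed between expressed and low members. For 17 of the 19 expressed members, those plotted by name, the SE of the log2 fold change was 0.048 to 0.176, and the 95% intervals together spanned -0.31 to 0.44, or 0.804 to 1.36-fold. Ratios ran from 0.909 (ABCC1) to 1.14 (ABCC3). For the 11 low members, which had 85 to 1383 counts over the 8 libraries, the SE was 0.169 to 0.884 and the intervals spanned -1.66 to 2.79. For ABCG2 (ratio 0.598, 95% interval of the log2 fold change -1.66 to 0.18) the interval held both no change and a fall of 2-fold.

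**Figure D5:**
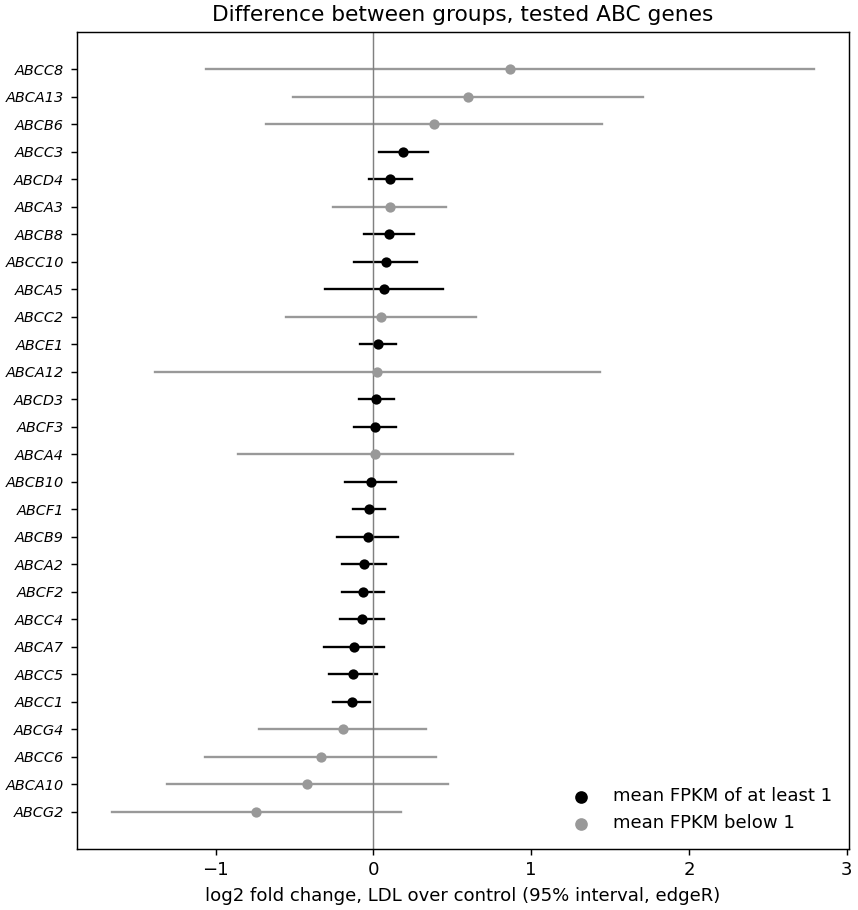
Log2 fold change of LDL over control with its 95% interval from edgeR for 28 of the 30 tested ABC genes, black for a mean of at least 1 FPKM and grey for less. The black intervals stay between -0.31 and 0.44, and the grey ones widen up to 2.79 for ABCC8.

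LDL sample 1 bore on the count of members at a low p. Without it, 5 members had an unadjusted edgeR p under 0.05 (among them ABCC1, ABCC5 and ABCA2, lower, and ABCC3, higher), while the share among all 15625 features then tested was 14.5%. None of the 5 passed the threshold (edgeR adjusted p from 0.0572 to 0.337). Without control sample 4 or without LDL sample 3, only ABCC3 had an unadjusted edgeR p under 0.05.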

How the data were processed

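RNA of 8 SKOV3 samples was made into libraries with a stranded mRNA kit, per the labels' protocols. HISAT2, featureCounts, DESeq2 1.26.0 and the build GRCh38 appear in the submitters' processing notes with no role; annotation and strand setting are not stated there. The deposited counts are whole numbers, but 55.17% of values from 1 to 20 were even, so they were treated as estimated counts. The deposited FPKM values were scaled to length and depth by the authors and served to set genes side by side.

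LDL was compared with control on counts by edgeR 4.0.16's quasi-likelihood method (R 4.3.3; TMM, filterByExpr, robust, group only), two-sided, over 15432 features with Benjamini-Hochberg adjustment at 0.05. CPM values are TMM-scaled unless given on unscaled totals, and error values are SD unless marked SE. Intervals and limits for a count of 0 (3 counts) do not cover estimation of shared reads. Alternatives were DESeq2 1.42.0, limma 3.58.1 (voom, and log2(FPKM + 1) or log2(FPKM + 0.1)), other scalings and filters, the replicate number as a block, and each sample left out. No pair of libraries of a group agreed within sampling noise (chi-square over its degrees of freedom 6.83 to 28.9). The test was checked on simulated data. Coordinates are from GENCODE release 29 (43 of 43 genes matched by symbol) and promoters from RefSeq.

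Members and lists were chosen with earlier results of these data known. The rule for named genes took tested members with an unadjusted p under 0.05 or groups that do not overlap, the highest member of each subfamily by FPKM (9 in all), and the gene with the smallest p of each partner list. ABCB6 and other members given by level were outside it and were named after their values were seen. Members counted in totals but not reported here by name are 2 of the 43.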

Additional observations from a re-analysis of the deposited data

Results flagged for a closer look

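Of 60 groups of 4 samples checked (30 tested members in 2 groups), 2 held a sample whose gap to the nearest other was above the 95% limit of Dixon's test; chance flags about 5% of groups. ABCB10 was at 39.3 CPM in LDL sample 4 against 33.5 to 34.3 CPM in the other LDL samples, while control samples 1 and 2 reached 38.9 and 37.5 CPM. LDL sample 4 is also the library with the low COL1A1 level, whose part was not tested. ABCA10 was at 0.814 CPM in LDL sample 2 against 0.317 to 0.402 CPM in the other LDL samples, and control samples 1 and 4 were at 0.776 and 0.763 CPM.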

How the results depend on the processing

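No member passed the threshold under any alternative run, and the median log2 fold change of the tested members stayed between -0.022 and 0.017. The count of members at an unadjusted p under 0.05 fell from 3 to 0 in each of the 3 fits on FPKM, and ran from 1 to 5 with a sample left out. Features called over the whole table, 10 with edgeR, numbered 42 with DESeq2, 2 with the replicate block, 5 on log2(FPKM + 0.1), 2 on log2(FPKM + 1) with no minimum, and 2 to 149 with a sample left out. Expressed members numbered 19 by FPKM and 30 by the count filter. Among named genes, 14 of 354 values changed sign, all in genes far from the threshold: ABCD3 (-0.0017 in each of the 3 FPKM fits and -0.00065 without LDL sample 4), ABCB10 (0.022, 0.0066 and 0.0060 without control sample 1, control sample 2 and LDL sample 3), ABCE1 (-0.014 without control sample 4), ABCB6 (-0.27 without LDL sample 2) and KCNJ11 (-0.0036 with upper-quartile factors, -0.0024 with no filter, and -0.20, -0.13 and -0.34 without control sample 1, control sample 2 and LDL sample 4). With a sample left out these ran up to 0.045 for ABCD3, 0.065 for ABCE1, 0.67 for ABCB6 and 0.39 for KCNJ11, and down to -0.074 for ABCB10. The causes were not tested. Same-numbered samples did not deviate together (r = -0.101, 0.0602, 0.0321 and -0.00433), so the number was not taken to pair them. The replicate block gave 3 members at an unadjusted p under 0.05, as the fit without it did. The 11 low members had 85 to 1383 counts and an SE of 0.169 to 0.884, and the expressed ABCA5, with 2111 counts, had an SE of 0.176.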
